A study of Mus musculus with 4 samples.

Results

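The interleukin-1 (IL-1) family members described here are 9 genes of the 30360 in the deposited gene table: the ligands Il1a, Il1b, Il18 and Il33, the receptor antagonist Il1rn, the receptors Il1r1 and Il1rl1, the decoy receptor Il1r2 and the accessory chain Il1rap. They were taken by gene symbol, each symbol named 1 row, and none was chosen by a level measured in these cells. RNA of single cells had been counted in colonoids, which are epithelial structures grown in a gel from distal colon, here of wildtype C57BL/6 mice and of Tnfr2-/- mice that lack Tnfrsf1b, the gene of TNF receptor 2 (TNFR2), in the whole body (strain B6.129S2-Tnfrsf1btm1Mwm/J). The sample labels give all donors as 16 weeks old, whereas the paper's methods give a younger age for the mice of its colonoid cultures. All cultures had gone through passage 5 before the experiment. In each genotype 1 culture was left untreated and the other was kept in 20 ng/ml TNF, added on day 1 after passaging and removed on day 6, before the harvest of all cultures on day 7. Each of these 4 cultures gave 1 library. No difference given here therefore has a replicate or a test, and each is a difference between single cultures. Where 4 values follow one another, the untreated and the TNF-treated wildtype come first and the untreated and the TNF-treated Tnfr2-/- culture follow.

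IL-1α and IL-1β, the products of Il1a and Il1b, signal through the receptor that Il1r1 encodes together with the accessory chain of Il1rap. The antagonist encoded by Il1rn occupies that receptor without signalling, and the product of Il1r2 binds the ligands but cannot relay them. IL-33 acts through ST2, the product of Il1rl1, again with the chain of Il1rap, while IL-18 has a receptor of its own. In the gut, IL-1α, IL-18 and IL-33 are stored by barrier cells and released on injury, and fibroblasts below the epithelium are known to answer IL-1 with chemokines, prostaglandins and matrix-degrading enzymes. Epithelium and fibroblasts can therefore be read as sender and receiver, and the deposited classes allow that for these cultures, because mesenchymal cells grew beside the epithelium in every library.

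The libraries held 2589, 1469, 1117 and 980 cells with 87228093, 56063515, 53178273 and 44547639 unique molecular identifiers (UMIs). Of these cells 1128, 1163, 1023 and 858 were in the 7 epithelial classes and 1430, 306, 90 and 122 in the 4 mesenchymal classes. The mesenchymal sums held 34799420, 14708920, 2177022 and 4771439 UMIs, so mesenchymal values are least precise in untreated Tnfr2-/- cultures. The class Mesenchyme-Ptges made up 2.38%, 99.3%, 41.1% and 100% of the mesenchymal cells, and the class Progenitor.2 made up 5.50%, 23.5%, 22.8% and 83.4% of the epithelial cells. The authors' classes were drawn from the same counts, so levels by class describe the classes and were not tested against each other. All 7 epithelial markers (Krt8, Krt18, Krt19, Epcam, Cdh1, Cldn7 and Vil1) and all 8 mesenchymal markers (Vim, Col1a1, Col1a2, Col3a1, Pdgfra, Dcn, Lum and Acta2) were present in their own compartment in every library. Barcodes seen in more than 1 library numbered 3. Of the sex-linked transcripts, Xist separated the genotypes in both compartments, whereas Y-linked ones ran in opposite directions in the epithelium and the mesenchyme. Levels here and throughout are in CPM, the UMIs of a gene in the summed cells scaled to a common total. Xist lay between 553 and 705 CPM in both wildtype compartments and at or below 0.459 CPM in Tnfr2-/-. Y-linked transcripts were at 143 and 135 CPM in the Tnfr2-/- mesenchyme against 0.0790 and 0.151 CPM in the Tnfr2-/- epithelium. In wildtype they were at 0.0862 and 0.476 CPM in the mesenchyme and at 5.32 and 29.4 CPM in the epithelium, untreated and TNF-treated. Genotype therefore cannot be told apart from these differences in sex-linked transcripts, and whether the cells of a library came from 1 mouse was not tested. The targeted gene Tnfrsf1b was lower but still tagged in Tnfr2-/- cells, at 4.17, 12.1, 1.82 and 6.89 CPM in the epithelium and 18.0, 19.2, 7.81 and 13.4 CPM in the mesenchyme. Whether its 3′ end lies in the deleted stretch was not tested, so these tags do not check the loss of the receptor.

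The genes lie in a few places of the mouse genome (GRCm38). Il1r2 (ENSMUSG00000026073, chr1:40074079-40125231), Il1r1 (ENSMUSG00000026072, chr1:40225080-40317257) and Il1rl1 (ENSMUSG00000026069, chr1:40429570-40465415) lie in this order on the plus strand. Il1rl2, which is not among the members, lies between Il1r1 and Il1rl1. Il1a (ENSMUSG00000027399, chr2:129299610-129309972) and Il1b (ENSMUSG00000027398, chr2:129364570-129371139) are neighbours on the minus strand, and Il1rn (ENSMUSG00000026981, chr2:24336853-24351494) lies far from both on the plus strand. Il1rap (ENSMUSG00000022514, chr16:26581704-26730117), Il18 (ENSMUSG00000039217, chr9:50554827-50581840) and Il33 (ENSMUSG00000024810, chr19:29925114-29960718) stand alone, all on the plus strand. The upstream sequences of Il1a, Il1rn and Il1rl1, the members whose levels differed most with TNF, are printed here, since such stretches hold the sites through which transcription is set. They are the 250 bases before a start given by RefSeq on GRCm38.p6, written 5′ to 3′ on the strand of the gene. Capitals mark a match to TGANTCA, the palindromic element bound by AP-1 factors.
Il1a, chr2:129309973-129310222, minus strand: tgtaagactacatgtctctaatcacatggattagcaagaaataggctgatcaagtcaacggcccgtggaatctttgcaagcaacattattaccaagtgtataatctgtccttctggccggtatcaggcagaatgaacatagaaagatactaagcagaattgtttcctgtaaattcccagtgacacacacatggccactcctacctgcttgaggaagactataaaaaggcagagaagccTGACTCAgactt
Il1rn first start, chr2:24336610-24336859, plus strand: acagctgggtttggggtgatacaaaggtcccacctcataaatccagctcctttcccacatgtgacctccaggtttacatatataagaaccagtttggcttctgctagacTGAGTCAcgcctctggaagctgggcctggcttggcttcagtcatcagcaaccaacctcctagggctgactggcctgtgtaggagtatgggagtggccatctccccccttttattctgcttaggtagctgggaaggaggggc
Il1rl1 distal start, chr1:40429320-40429569, plus strand: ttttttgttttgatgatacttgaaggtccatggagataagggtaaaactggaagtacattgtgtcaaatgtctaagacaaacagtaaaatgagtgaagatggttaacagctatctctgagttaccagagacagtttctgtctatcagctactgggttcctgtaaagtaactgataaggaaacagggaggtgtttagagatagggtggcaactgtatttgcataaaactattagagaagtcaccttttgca
Il1rl1 proximal start, chr1:40439379-40439628, plus strand: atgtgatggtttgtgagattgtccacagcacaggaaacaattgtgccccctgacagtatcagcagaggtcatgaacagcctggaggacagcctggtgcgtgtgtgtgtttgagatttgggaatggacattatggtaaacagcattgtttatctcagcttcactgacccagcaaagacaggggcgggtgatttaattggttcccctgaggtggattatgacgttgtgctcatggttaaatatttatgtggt

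The element stood 12 bases before the start of Il1a and 141 bases before the first start of Il1rn, and in no other of the 14 windows of the 9 members. Each window searched, on both strands, ran from 250 bases before to 50 after a start, and 7.81% of 32851 such windows held TGANTCA. The NF-kB consensus was matched by 4.51% of them and by 1 member window, the second start of Il1r1, as GGGGCATTCC on the minus strand 232 bases before the start. The letters GGAATTTCC, a motif chosen after the data were seen and which can lie inside a match to the consensus, were in 0.317% of windows and in the window of the proximal Il1rl1 start, 7 bases after it. These are matches of letters and no sites shown to be bound. The libraries tag 3′ ends, so they do not say which start of Il1rl1 or Il1rn was used. The deposited counts are summed per gene. They therefore do not say which coding transcripts of these genes, the soluble and the membrane forms included, gave the tags.

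The first question was which compartment carried each gene. In all 4 libraries the epithelium held the ligands Il18 and Il33 and the antagonist, and the mesenchyme held all 4 receptor chains. Among the UMIs of a gene in a library, the epithelium gave 97.8% to 99.8% of Il1rn, 88.0% to 99.1% of Il18 and 94.9% to 100% of Il33. The mesenchyme gave 79.4% to 98.7% of Il1r1, 81.8% to 99.6% of Il1r2, 86.5% to 97.9% of Il1rap and 99.1% to 100% of Il1rl1, although it was the smaller sum in every library. Counting genes at 5 CPM or more in 1 of both sums, and with 1 CPM added before taking logs, 4, 4, 4 and 3 members were at least 2-fold higher in the mesenchyme, of 6, 7, 7 and 6 measured. Over all genes measured the same share was 25.4%, 21.5%, 23.1% and 21.7%. At least 2-fold lower were 2, 2, 3 and 2 members, against 16.1%, 16.4%, 21.6% and 17.3% of all genes. The median difference of these members was 4.22, 3.05, 3.10 and 2.27 on the log2 scale, and that of all genes 0.17, 0.10, -0.07 and -0.01.

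**Figure D1:**
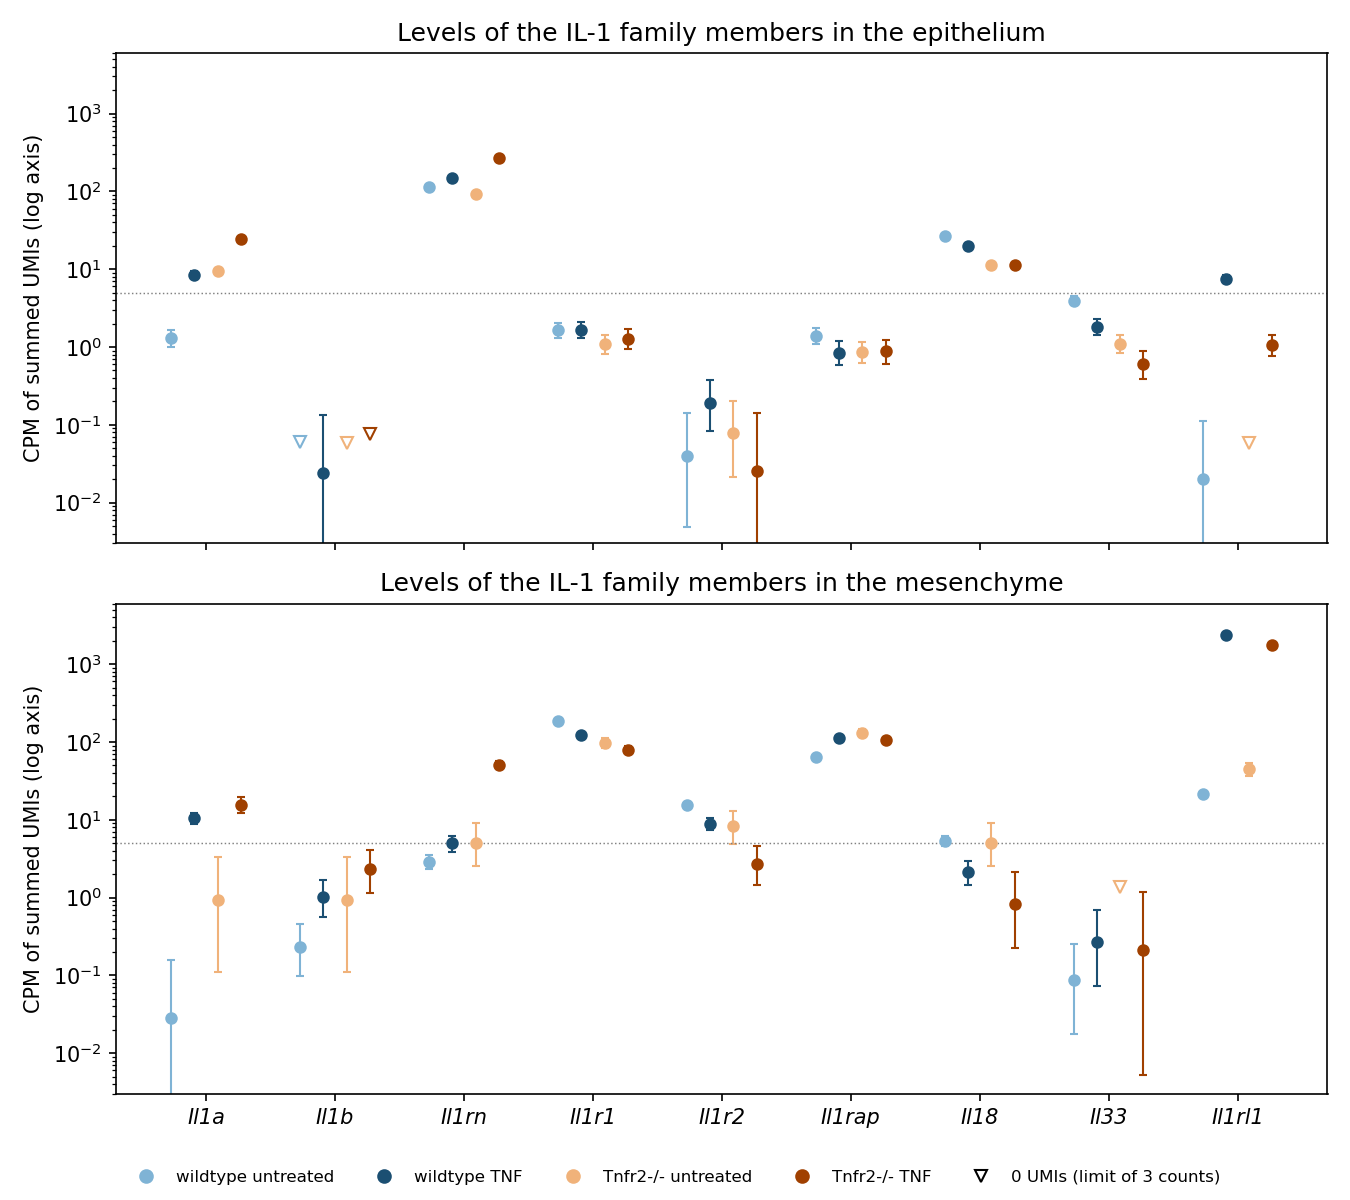
Level of each IL-1 family gene in the summed epithelial cells (top) and mesenchymal cells (bottom) of the 4 libraries, in CPM on a log axis with exact Poisson 95% intervals, open triangles marking the limit of 3 counts where no UMI was seen and the dotted line the minimum of 5 CPM. Il1rn stands highest in each epithelium (92.7 to 265 CPM), whereas Il1r1, Il1rap and, with TNF, Il1rl1 (2386 and 1738 CPM) stand highest in the mesenchyme.

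Il1a, the ligand that cells hold in the nucleus and cytosol and that acts as an alarm signal, was low in untreated wildtype epithelium and higher in the other 3 cultures. Its epithelial level was 1.29 CPM (95% interval 0.997 to 1.65) in untreated wildtype, 8.51 (7.65 to 9.45) in TNF-treated wildtype, 9.34 (8.52 to 10.2) in untreated Tnfr2-/- and 24.5 (23.0 to 26.1) in TNF-treated Tnfr2-/- cultures. These intervals, like all below, cover counting error only. Untreated wildtype was lowest and TNF-treated Tnfr2-/- highest, while wildtype with TNF and Tnfr2-/- without it had overlapping intervals. The TNF-treated culture had 6.59 times the untreated level in wildtype (5.05 to 8.73) and 2.62 times in Tnfr2-/- (2.35 to 2.93), which is a log2 difference of 2.05 and 1.30 after adding 1 CPM. Tnfr2-/- epithelium had 7.23 times the wildtype level when untreated (5.57 to 9.52) and 2.88 times with TNF (2.54 to 3.26). On the log2 scale these differences were 2.17 and 1.42. The median of the genes on chromosome 2, where Il1a lies, was 0.36 and 0.10, and that of all genes 0.14 and -0.13. After every cell was thinned to 5000 UMIs, 0.461% (0.150 to 1.07), 3.67% (2.52 to 5.14), 2.63% (1.72 to 3.82) and 8.63% (6.82 to 10.7) of epithelial cells had a UMI of Il1a, against 2.48%, 11.8%, 12.1% and 29.4% at full depth.

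Most of the Il1a came from the class Progenitor.2, whose share of cells differed between the cultures. Progenitor.2 gave 57.6%, 56.9%, 77.3% and 91.6% of all Il1a UMIs of the libraries. Its own level was 22.6 CPM (16.0 to 31.1), 22.7 (20.2 to 25.5), 37.0 (33.3 to 41.0) and 28.5 (26.7 to 30.3), a much narrower range than that of the whole epithelium. Within this class the log2 difference with TNF was 0.00 (-0.60 to 0.64) in wildtype and -0.37 (-0.60 to -0.13) in Tnfr2-/-, where the median of all genes was -0.12. When the Il1a levels that each class had in the untreated culture were combined with the UMI shares the classes had under TNF, the epithelial level came to 7.33 CPM in wildtype and 31.8 CPM in Tnfr2-/-, beside 8.62 and 24.5 CPM measured in the same 6 classes. The same calculation across genotypes gave 4.91 CPM for untreated Tnfr2-/- epithelium, beside 9.34 CPM measured. In Progenitor.1, the largest epithelial class of 3 libraries, the level was 0.651, 2.57, 2.83 and 2.54 CPM, so it was lower in untreated wildtype than in the other 3 cultures, with an interval of 0.386 to 1.03. Single cells weighed on 2 of these values: 1 cell held 23 of the 38 UMIs of Progenitor.2 in untreated wildtype, and 1 cell held 109 of 367 in untreated Tnfr2-/-.

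With TNF, Il1a was also seen in the mesenchyme, where it had been near the limit of detection. The mesenchymal sums held 1 UMI in untreated and 154 in TNF-treated wildtype, and 2 and 75 UMIs in Tnfr2-/-. In CPM this was 0.0287 (0.000728 to 0.160), 10.5 (8.88 to 12.3), 0.919 (0.111 to 3.32) and 15.7 (12.4 to 19.7). The ratio of TNF-treated to untreated sums was 364 in wildtype (64.4 to 14483) and 17.1 in Tnfr2-/- (4.57 to 144), both wide because the untreated sums held so few counts. All of these UMIs under TNF lay in Mesenchyme-Ptges, in 30 of its 304 cells in wildtype and in 24 of 122 cells in Tnfr2-/-, with at most 37 and 18 UMIs in 1 cell. RNA from epithelial cells was present in the mesenchymal sums, where the 7 epithelial markers stood at a median of 1.10%, 0.544%, 1.20% and 5.10% of their epithelial level and at most at 8.79%, 10.7%, 2.19% and 10.3%. Mesenchymal Il1a stood at 2.23%, 123%, 9.84% and 64.2% of its epithelial level. Without the 63, 30, 4 and 20 mesenchymal cells whose epithelial markers summed to more than 500 CPM, a limit chosen after the data were seen, Il1a was at 0, 10.6, 0.945 and 16.2 CPM. The part of epithelial RNA in these levels was not tested further.

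Il1b, the ligand best known from activated macrophages, was almost absent. It had 37 UMIs in the whole data set, of which 1 lay in an epithelial cell, in the TNF-treated wildtype. The mesenchymal sums held 8, 15, 2 and 11 UMIs, or 0.230, 1.02, 0.919 and 2.31 CPM. The level with TNF was 4.44 times that without in wildtype (1.77 to 12.1), and 2.51 times in Tnfr2-/- with an interval of 0.548 to 23.3 that includes no difference. Leukocytes, its usual source, were scarce: 11 leukocyte markers summed to between 2.18 and 21.6 CPM, with Cd68 the highest in each sum, and 4 to 8 of the 11 were at 0, Tyrobp among them in every sum.

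Il1rn, which encodes the secreted and intracellular forms of the antagonist, was the highest of the members in the epithelium of every library. Its epithelial level was 114 CPM (111 to 117), 150 (147 to 154), 92.7 (90.1 to 95.4) and 265 (260 to 270). The 4 intervals did not overlap, and the TNF-treated Tnfr2-/- culture stood apart at the top. With TNF the level was 1.32 times the untreated level in wildtype (1.27 to 1.37) and 2.86 times in Tnfr2-/- (2.76 to 2.96). The untreated Tnfr2-/- epithelium was at 0.814 times the wildtype level (0.783 to 0.846), and the TNF-treated one at 1.76 times (1.71 to 1.82). On the log2 scale these differences were -0.29 and 0.81. The median of the genes between 20 and 30 Mb of chromosome 2, where Il1rn lies, was 0.54 and 0.36, and that of all genes 0.14 and -0.13. Whether the Il1rn difference with TNF goes with that stretch was not tested. Thinned to 5000 UMIs, 30.3% (27.6 to 33.2), 37.2% (34.0 to 40.5), 26.1% (23.4 to 28.9) and 53.9% (50.5 to 57.3) of epithelial cells had a UMI, against 1.13% to 13.3% of mesenchymal cells.

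The level of Il1rn in the class Progenitor.2 varied little between the cultures. It was 323 CPM (297 to 352), 345 (335 to 355), 302 (291 to 313) and 303 (297 to 309). The log2 difference with TNF was 0.09 (-0.07 to 0.26) in wildtype and 0.00 (-0.07 to 0.08) in Tnfr2-/-. In untreated wildtype the 543 UMIs of this class lay in 47 of 62 cells. Of these UMIs 112 were in 1 cell, and 5 cells held 50% of them. Class levels of untreated Tnfr2-/- at the class shares of the TNF-treated culture gave 262 CPM, beside 265 CPM measured, while in wildtype they gave 127 CPM beside 152 CPM measured in the same classes. In Progenitor.1 the level was lower throughout, at 39.9, 68.7, 41.4 and 54.0 CPM, and it was 1.72 times higher with TNF in wildtype (1.59 to 1.87) and 1.30 times in Tnfr2-/- (1.14 to 1.48). In untreated wildtype most of the antagonist came from another class: Absorptive, the differentiated surface-type cells, held 249 CPM (242 to 257) and 68.7% of the UMIs, and it made up 28.3% of the epithelial cells there against at most 1.63% in the other 3 libraries. Where secretory cells of the class Secretory-Reg4-Spdef-Lyz1 numbered at least 20, they held 8.81, 38.7 and 3.76 CPM (untreated and TNF-treated wildtype, untreated Tnfr2-/-).

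**Figure D2:**
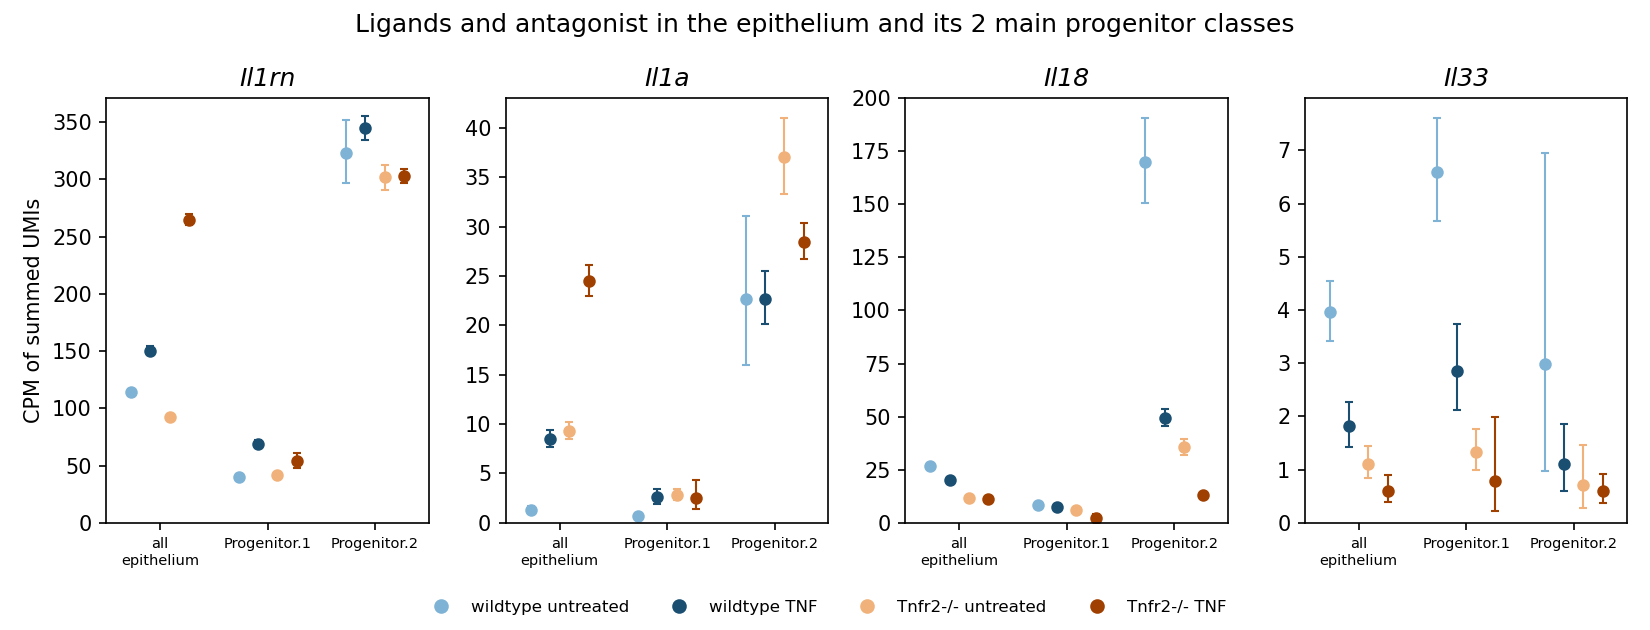
Il1rn, Il1a, Il18 and Il33 (1 panel each, linear axes of different range) in the whole epithelium and in the classes Progenitor.1 and Progenitor.2 of each library, in CPM with exact Poisson 95% intervals. Il1rn spans 92.7 to 265 CPM over the whole epithelium and 302 to 345 CPM within Progenitor.2, whereas Il18 within Progenitor.2 spans 12.9 to 170 CPM.

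In the mesenchyme Il1rn was low in 3 cultures and higher in TNF-treated Tnfr2-/-. The level was 2.87 CPM (2.34 to 3.50), 4.96 (3.89 to 6.24), 5.05 (2.52 to 9.04) and 50.7 (44.5 to 57.5). In Tnfr2-/- the TNF-treated sum was 10.0 times the untreated one (5.51 to 20.4), and with TNF the Tnfr2-/- sum was 10.2 times that of wildtype (7.84 to 13.5). The epithelial markers in the mesenchymal sum were highest in the same library, at a median of 5.10% of their epithelial level and at most 10.3%, and mesenchymal Il1rn stood at 2.52%, 3.30%, 5.45% and 19.1% of its epithelial level. Without the cells above 500 CPM of epithelial markers it was at 2.17, 4.94, 3.31 and 46.5 CPM (40.0 to 53.8 in the last). It lay in 48 of 122 cells, 1 of which held 51 of the 242 UMIs. The part of epithelial RNA in the remaining level was not tested.

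Il18, a ligand that resting gut epithelium makes as an inactive precursor, was lower in Tnfr2-/- than in wildtype epithelium. The levels were 26.8 CPM (25.4 to 28.3), 20.0 (18.7 to 21.4), 11.5 (10.6 to 12.4) and 11.3 (10.3 to 12.4), so both Tnfr2-/- cultures lay below both wildtype cultures and had overlapping intervals. Untreated wildtype had 2.34 times the level of untreated Tnfr2-/- epithelium (2.12 to 2.58), and the factor was 1.77 with TNF (1.58 to 1.99). Between treatments the wildtype levels differed by a factor of 1.34 (1.23 to 1.46), and the Tnfr2-/- levels by 1.02 (0.897 to 1.15). Within Progenitor.2 the spread was wider than over the whole epithelium, at 170 CPM (151 to 191), 49.3 (45.6 to 53.4), 35.5 (31.9 to 39.4) and 12.9 (11.7 to 14.2). There TNF-treated cells were lower by a log2 difference of -1.76 (-2.04 to -1.48) in wildtype and -1.39 (-1.67 to -1.12) in Tnfr2-/-. The untreated wildtype level of this class rests on few cells, which the counting interval does not cover. Its 285 UMIs lay in 26 of 62 cells, 58 of them in 1 cell, and 4 cells held 50% of them. Progenitor.2 made up more of the epithelium with TNF, and its untreated levels at the TNF class shares would have given 58.2 CPM in wildtype and 30.9 CPM in Tnfr2-/-, beside 20.2 and 11.3 CPM measured. Absorptive cells of untreated wildtype, at 51.0 CPM (47.6 to 54.6), gave 53.4% of the Il18 UMIs of that library. The mesenchyme had 5.29, 2.11, 5.05 and 0.838 CPM, and without TNF its level was 2.51 times that with TNF in wildtype (1.71 to 3.80), from 184 and 31 UMIs, and 6.03 times in Tnfr2-/- (1.79 to 26.0), from 11 and 4 UMIs. The wildtype difference, -1.02 on the log2 scale, was no longer 2-fold with TMM or DESeq2 scaling.

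Il33, an alarm signal held in the nucleus, was faint, below 5 CPM in every epithelial sum and therefore in no count of genes past 2-fold. The levels were 3.95 CPM (3.42 to 4.54), 1.81 (1.43 to 2.27), 1.11 (0.835 to 1.44) and 0.603 (0.387 to 0.898), in 199, 75, 56 and 24 UMIs. Untreated wildtype was highest and TNF-treated Tnfr2-/- lowest. Untreated wildtype had 3.58 times the level of untreated Tnfr2-/- epithelium (2.65 to 4.90) and 2.18 times that of TNF-treated wildtype (1.66 to 2.88). By level its highest class was Progenitor.1, at 6.59 CPM (5.66 to 7.62), 2.85 (2.13 to 3.73), 1.33 (0.987 to 1.76) and 0.780 (0.213 to 2.00). In TNF-treated Tnfr2-/- the last value rests on 4 UMIs, while Progenitor.2 held 20 of the 24 UMIs at 0.593 CPM. Within Progenitor.1 the genotype difference in untreated cultures was -1.70 (-2.12 to -1.27) on the log2 scale, and that with TNF in wildtype was -0.98 (-1.46 to -0.49). Over the whole epithelium the median genotype difference of the genes on chromosome 19, where Il33 lies, was 0.55 untreated and 0.31 with TNF, the opposite sign. That of all genes was 0.14 and -0.13. The mesenchyme, which in intact gut includes IL-33-bearing fibroblasts, had 3, 4, 0 and 1 UMIs of Il33. The limit that a count of 0 allows there was 1.38 CPM, so low levels were not detectable in untreated Tnfr2-/- mesenchyme.

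Among the receptors, Il1rl1, which encodes the IL-33 receptor ST2, had by far the widest range. Its mesenchymal level was 21.2 CPM (19.7 to 22.8) in untreated and 2386 (2361 to 2411) in TNF-treated wildtype, and 44.6 (36.1 to 54.4) in untreated and 1738 (1700 to 1775) in TNF-treated Tnfr2-/- cultures. Both TNF-treated cultures lay far above both untreated ones. The TNF-treated sum was 112 times the untreated one in wildtype (104 to 121) and 39.0 times in Tnfr2-/- (31.9 to 48.1), log2 differences of 6.75 and 5.25. Between genotypes the difference was small beside this: Tnfr2-/- was at 2.10 times the wildtype level untreated (1.68 to 2.60) and at 0.728 times with TNF (0.711 to 0.746). The untreated difference had the opposite sign within each of the 2 classes with enough cells in both genotypes, given further on, and turned to -2.60 on the log2 scale with classes weighted equally.

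The gain under TNF was spread over most mesenchymal cells. Thinned to 5000 UMIs, 2.82% (2.02 to 3.82), 88.9% (84.8 to 92.3), 6.98% (2.60 to 14.6) and 81.7% (73.6 to 88.1) of mesenchymal cells had a UMI of Il1rl1, and at full depth 8.39%, 95.8%, 20.0% and 90.2%. In epithelial cells the thinned share was 0, 1.26%, 0 and 0.709%. The median mesenchymal cell held 0, 1745, 0 and 1060 CPM. Nearly all mesenchymal cells of the TNF-treated cultures were of the class Mesenchyme-Ptges, so the treatment and the class cannot be told apart over the compartment. Within Mesenchyme-Ptges the level was 663 CPM (579 to 755), 2400 (2375 to 2426), 103 (82.6 to 128) and 1738 (1700 to 1775), which is 3.62 times higher with TNF in wildtype (3.18 to 4.15) and 16.8 times in Tnfr2-/- (13.6 to 21.1). The untreated values rest on few cells. In wildtype 5 of 34 cells held the 227 UMIs, 135 of them in 1 cell, and in Tnfr2-/- 12 of 37 cells held 86 UMIs. Outside this class, untreated wildtype cells of Mesenchyme-Ifitm1, Mesenchyme-generic and Mesenchyme-proliferative had 13.7, 20.2 and 9.17 CPM, and Mesenchyme-generic of untreated Tnfr2-/- had 7.63 CPM.

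**Figure D3:**
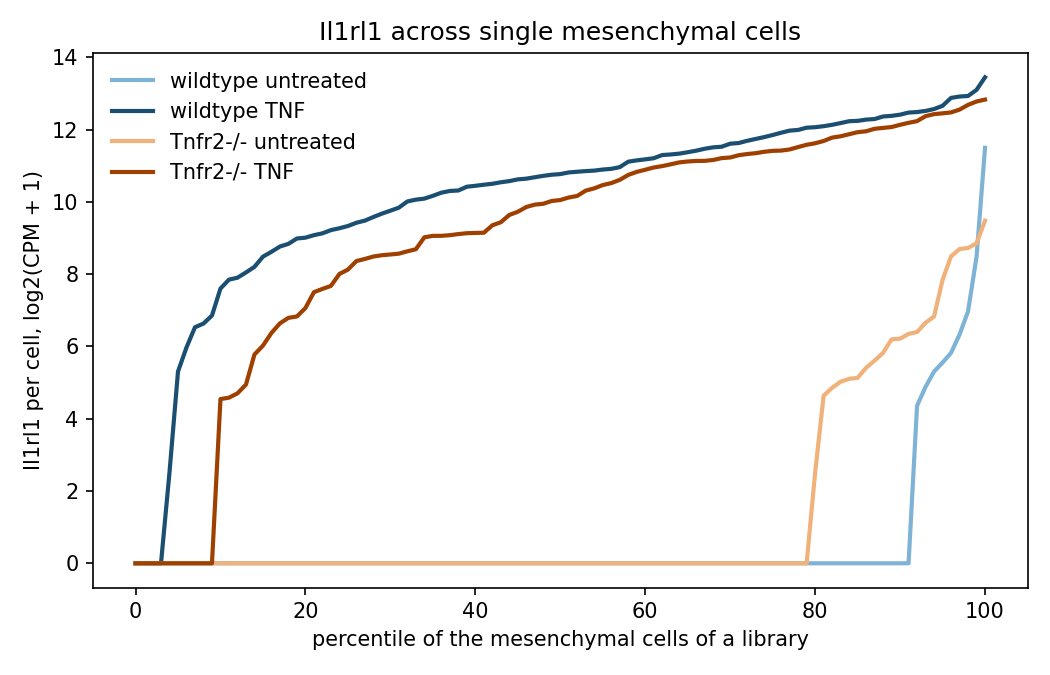
Il1rl1 per single mesenchymal cell, as log2(CPM + 1) against the percentile of the mesenchymal cells of each library. At the middle of each curve the untreated cells lie at 0 and the TNF-treated cells at 1745 CPM (wildtype) and 1060 CPM (Tnfr2-/-).

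In the epithelium Il1rl1 had 1, 311, 0 and 42 UMIs, or 0.0199, 7.52, 0 and 1.06 CPM. Of the 311 UMIs in TNF-treated wildtype, 212 (68.2%) lay in the class Secretory-Reg4-Ang4. This class occurred in that library alone, with 246 cells of a median of 1957.5 UMIs. Its Il1rl1 level of 416 CPM (362 to 476) was 17.4% of the mesenchymal level, and the 8 mesenchymal markers in it stood at 4.28% to 42.1% of theirs, with a median of 12.8%. Without this class the epithelium of TNF-treated wildtype had 2.42 CPM. Over the whole epithelium Il1rl1 stood at 0.0936%, 0.315%, 0 and 0.0608% of its mesenchymal level, and the mesenchymal markers stood at 0.0639% to 0.218%, 0.136% to 0.631%, 0 to 0.0926% and 0 to 0.142%. The epithelial value lay within the range of the markers in each library.

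Il1r1, the signalling receptor for IL-1α and IL-1β, was high in the mesenchyme of every culture and lower with TNF. The levels were 188 CPM (183 to 192), 122 (117 to 128), 97.4 (84.7 to 111) and 79.4 (71.6 to 87.8), highest in untreated wildtype. The TNF-treated sum was 0.651 times the untreated one in wildtype (0.618 to 0.687) and 0.816 times in Tnfr2-/- (0.688 to 0.970). Tnfr2-/- was at 0.519 times the wildtype level untreated (0.450 to 0.595) and at 0.649 times with TNF (0.580 to 0.726). Thinned shares of mesenchymal cells with a UMI were 55.8% (53.1 to 58.4), 42.3% (36.6 to 48.1), 41.9% (31.3 to 53.0) and 30.8% (22.7 to 39.9), in the same order as the levels. By class, Mesenchyme-Ifitm1, found with more than 1 cell only in untreated wildtype, had 227 CPM (221 to 234), the highest value. Mesenchyme-generic had 111 CPM (104 to 118) in untreated wildtype and 126 (107 to 147) in untreated Tnfr2-/-, a log2 difference of 0.18 (-0.13 to 0.49). Within Mesenchyme-Ptges the direction with TNF differed by genotype, at 178 and 122 CPM in wildtype against 43.2 and 79.4 CPM in Tnfr2-/-, and the untreated sums of wildtype and Tnfr2-/- held only 61 and 36 UMIs. In the epithelium Il1r1 was at 1.65, 1.67, 1.09 and 1.28 CPM, which is 0.878%, 1.36%, 1.12% and 1.61% of the mesenchymal level and above the highest of the 8 mesenchymal markers in each library.

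Il1r2, the decoy receptor, was the lowest of the mesenchymal receptor chains. It stood at 15.7 CPM (14.4 to 17.0), 8.91 (7.45 to 10.6), 8.27 (4.90 to 13.1) and 2.72 (1.45 to 4.66), from 545, 131, 18 and 13 UMIs. Untreated wildtype was highest, TNF-treated Tnfr2-/- lowest, and the values between them had overlapping intervals. Without TNF the level was 1.76 times that with TNF in wildtype (1.45 to 2.14) and 3.03 times in Tnfr2-/- (1.41 to 6.74). Untreated cells of Mesenchyme-Ifitm1, Mesenchyme-generic and Mesenchyme-proliferative in wildtype had 17.2, 13.6 and 13.0 CPM. Mesenchyme-Ptges had 2.92, 8.76, 1.20 and 2.72 CPM, the first and the third from 1 UMI each. With 1 untreated UMI in each genotype, the direction with TNF within this class cannot be told. The other mesenchymal classes held at most 1 cell each in the TNF-treated cultures, so TNF could not be compared within them. In the epithelium 8 UMIs in TNF-treated wildtype were the most seen, all of them in its 31 enteroendocrine cells, at 9.20 CPM (3.97 to 18.1). They lay in 4 of these cells, and 1 cell held 5 of them.

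Il1rap, the accessory chain that both receptors need, differed between the cultures in another way than Il1r1. Its mesenchymal level was 64.3 CPM (61.6 to 67.0), 112 (107 to 118), 129 (114 to 145) and 105 (95.6 to 114), with untreated wildtype below the other 3. With TNF it was 1.75 times higher in wildtype (1.64 to 1.86) and at 0.810 times the untreated level in Tnfr2-/- (0.699 to 0.941), so the 2 genotypes differed in direction, a difference that was not tested. In untreated wildtype the level was 51.4 CPM (48.4 to 54.5) in Mesenchyme-Ifitm1, 105 (98.6 to 112) in Mesenchyme-generic, 34.8 (29.3 to 40.9) in Mesenchyme-proliferative and 152 (113 to 199) in Mesenchyme-Ptges. Within Mesenchyme-Ptges the log2 difference with TNF was -0.43 (-0.89 to 0.06) in wildtype and 0.05 (-0.38 to 0.50) in Tnfr2-/-, so the higher wildtype sum with TNF was not seen inside this class. In the epithelium Il1rap lay between 0.846 and 1.39 CPM.

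Cells with both chains of a receptor were counted next, as a description in which shared depth raises both. In the mesenchyme 64.8% (62.2 to 67.2), 87.9% (83.7 to 91.3), 71.1% (60.6 to 80.2) and 77.9% (69.5 to 84.9) of cells had UMIs of Il1r1 and Il1rap. Thinned to 5000 UMIs these shares were 14.3%, 18.1%, 24.4% and 10.8%. The pair Il1rl1 and Il1rap was found in 6.50%, 87.3%, 17.8% and 77.9% of mesenchymal cells, and after thinning in 0.635% (0.291 to 1.20), 31.9% (26.6 to 37.5), 4.65% (1.28 to 11.5) and 30.0% (22.0 to 39.0). Both receptors, Il1r1 and Il1rl1, met in 1.41%, 37.6%, 0 and 27.5% of thinned mesenchymal cells, and 0 of 86 cells allows up to 4.2% by the exact binomial interval. In the epithelium the pair Il1r1 and Il1rap was seen in 2 to 4 cells of a library at full depth and in 0 thinned cells.

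**Figure D4:**
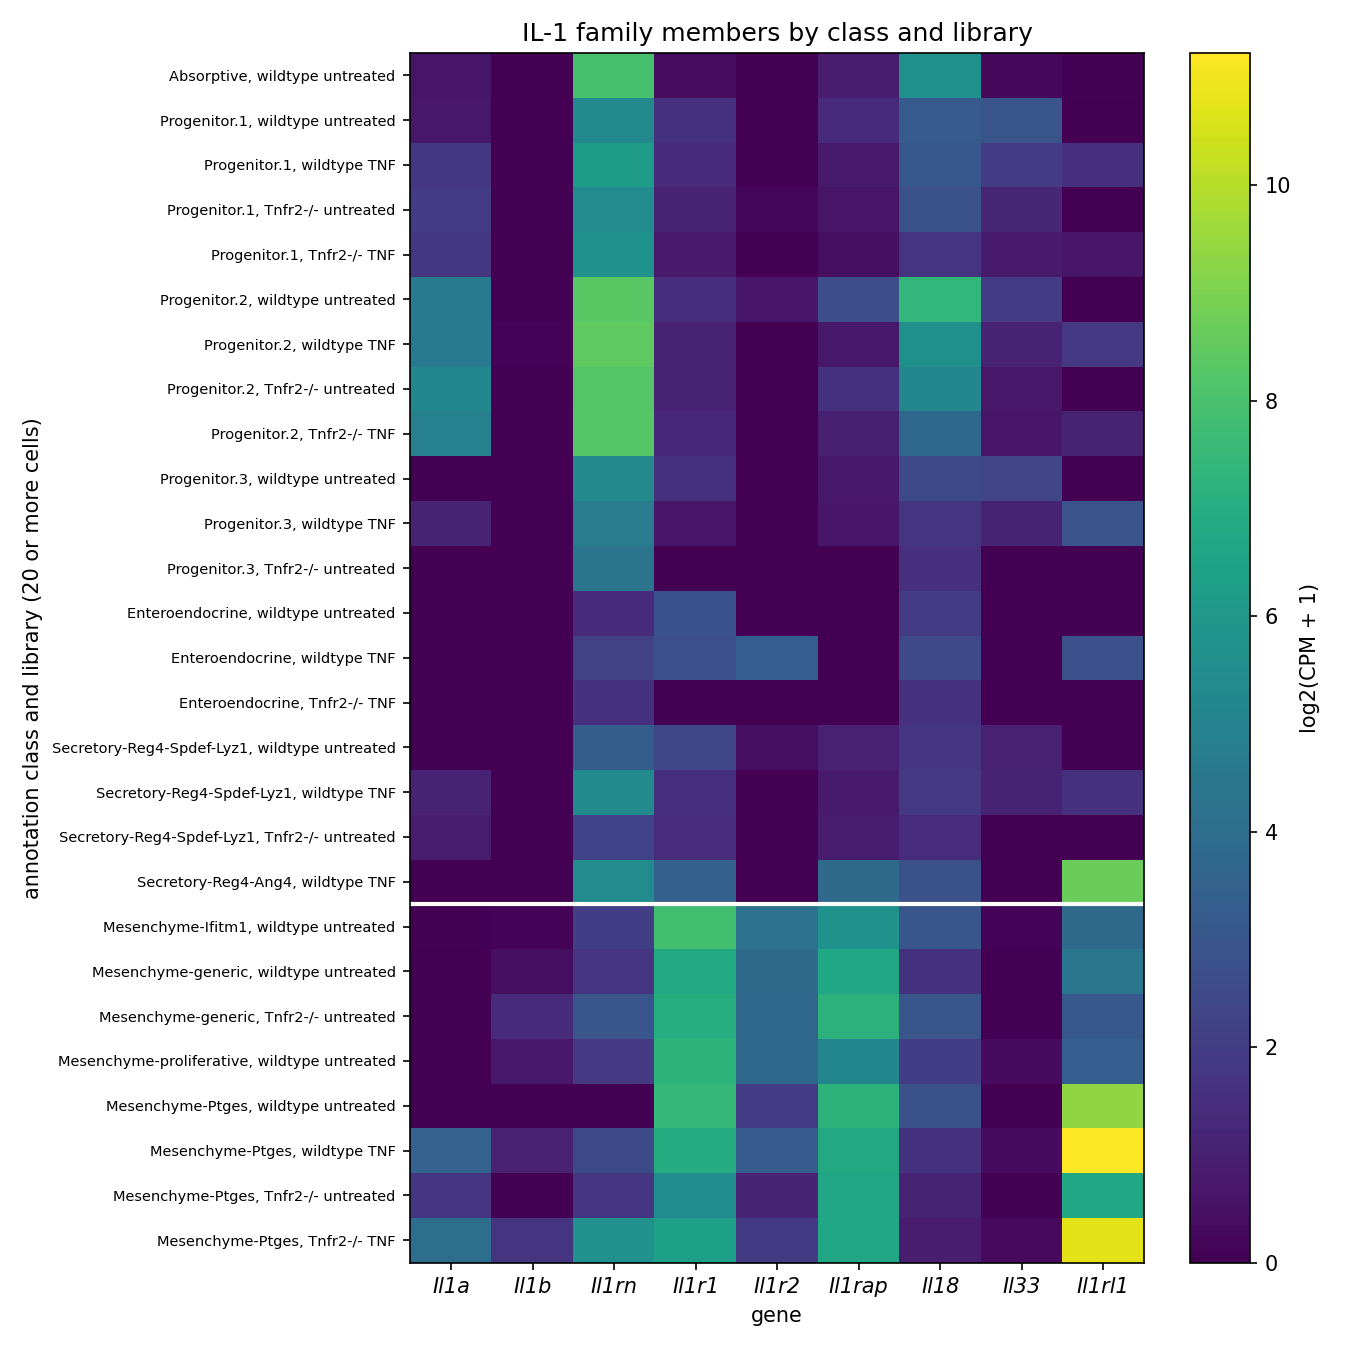
Each member (columns) in each annotation class and library with at least 20 cells (rows, epithelial classes above the white line), coloured by log2(CPM + 1). Il1rn and Il18 are brightest in Progenitor.2 and Absorptive, Il1r1 and Il1rap in all mesenchymal classes, and Il1rl1 in Mesenchyme-Ptges of both TNF-treated libraries.

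The comparison of TNF with no treatment asked how the cytokine moved the family. In the wildtype epithelium 2 of the 4 members at 5 CPM or more were at least 2-fold higher with TNF (Il1a and Il1rl1) and 0 lower, against 2.95% and 1.05% of all genes measured. In the Tnfr2-/- epithelium 2 of 3 were higher (Il1a and Il1rn) and 0 lower, against 4.93% and 8.6% of all genes. In the wildtype mesenchyme 2 of 6 were higher (Il1a and Il1rl1) and 1 lower (Il18), against 6.17% and 7.81%. In the Tnfr2-/- mesenchyme 3 of 7 were higher (Il1a, Il1rn and Il1rl1) and 2 lower (Il1r2 and Il18), against 7.09% and 8.04%. Without the class Secretory-Reg4-Ang4 epithelial Il1rl1 was under 5 CPM in wildtype, and the first count was 1. With so few members a share says little, and the median over all genes, 0.06, -0.15, -0.01 and -0.12 in these 4 comparisons, was near 0.

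**Figure D5:**
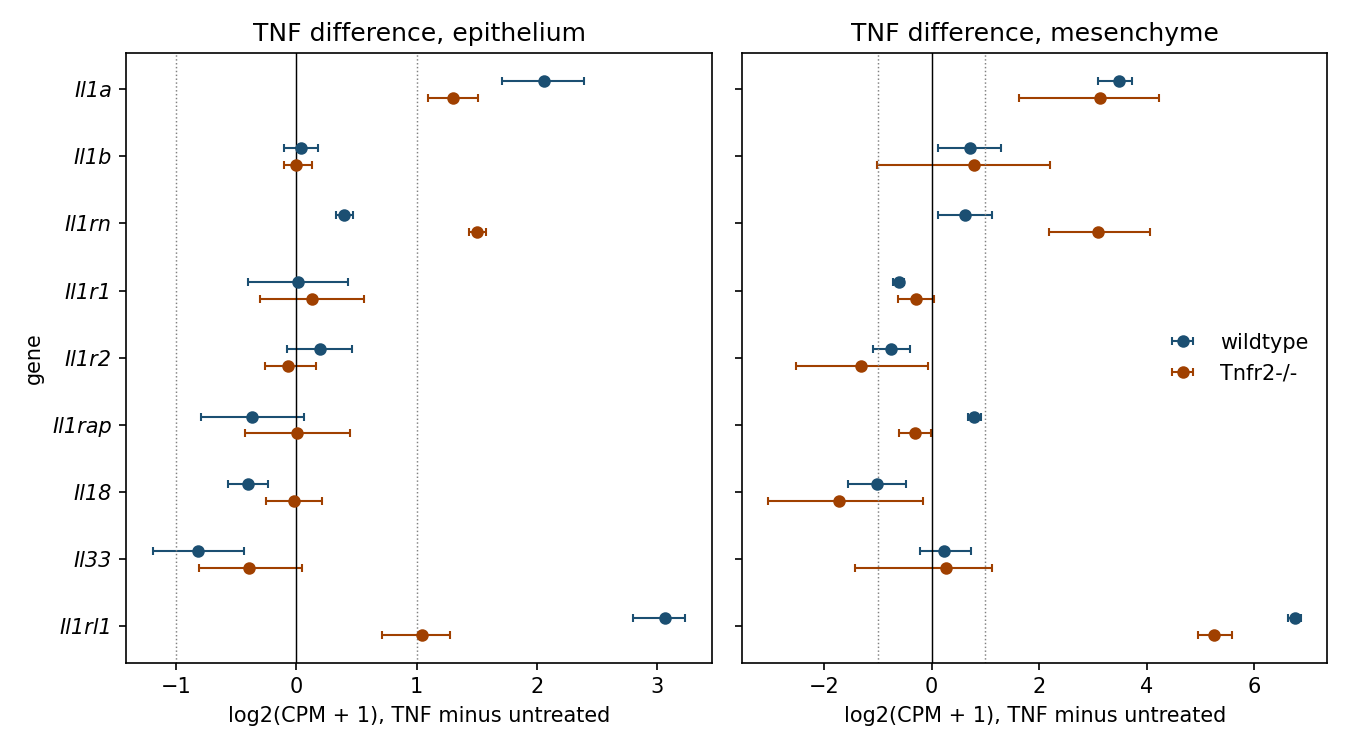
Difference of each member with TNF, as log2(CPM + 1) in the TNF-treated minus the untreated culture, in the epithelium (left) and mesenchyme (right) of each genotype, with bounds from the Poisson limits of both sums and dotted lines at 2-fold. Il1rl1 in the mesenchyme lies farthest from 0, at 6.75 in wildtype and 5.25 in Tnfr2-/-, and Il1rap lies on opposite sides of 0, at 0.80 and -0.30.

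The comparison of Tnfr2-/- with wildtype asked what differed without TNFR2, within the limit set by the sex-linked transcripts. In untreated epithelium 1 of 3 members was at least 2-fold higher (Il1a) and 1 lower (Il18), against 3.2% and 3.85% of all genes. In TNF-treated epithelium 1 of 4 was higher (Il1a) and 1 lower (Il1rl1), against 4.87% and 7.73%, and without the class Secretory-Reg4-Ang4 Il1rl1 dropped out of this count. In untreated mesenchyme 1 of 6 was higher (Il1rl1) and 0 lower, against 3.92% and 5.56%. In TNF-treated mesenchyme 1 of 6 was higher (Il1rn) and 1 lower (Il1r2), against 7.28% and 9.78%. The epithelial genotype differences share their control cultures with the TNF differences above and are not independent of them.

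Related receptors and ligands were read from a list of 12, of which 8 symbols were in the gene table. Il18r1 and Il18rap, the chains of the IL-18 receptor, lie just beyond Il1rl1 on chromosome 1 and were at least 2-fold higher with TNF in both epithelia, the only 2 of 3 measured, where 2.95% and 4.93% of all genes were. Il18r1 had 0.417, 10.6, 3.89 and 16.3 CPM and Il18rap 0.0795, 5.71, 2.33 and 10.96 CPM in the epithelium. In the mesenchyme Il18rap alone passed 2-fold with TNF, of 3 measured, at 0.690, 9.45, 1.84 and 9.85 CPM. Il18r1, which starts right behind the end of Il1rl1 on the same strand, had 0, 1.70, 0 and 2.51 CPM in the mesenchyme. Il1rl2, the IL-36 receptor, was mesenchymal at 15.2, 11.9, 18.8 and 12.6 CPM, Sigirr, an inhibitory receptor, was epithelial at 23.9, 19.3, 20.5 and 15.7 CPM, and Il18bp, which neutralises IL-18, had 8.99, 6.53, 6.43 and 7.13 CPM in the mesenchyme. The IL-36 ligands are listed under the older symbols Il1f6, Il1f8 and Il1f9, and their antagonist under Il1f5, which were looked up after the data were seen. Il1f6 had 0.318, 0.0967, 3.61 and 9.20 CPM in the epithelium and Il1f9 had 0, 0.798, 1.76 and 5.81 CPM. Il1f8 had 0.119, 0.0967, 0.671 and 1.58 CPM and Il1f5 had 0, 0, 0.0987 and 1.18 CPM there, and all 4 genes were highest in TNF-treated Tnfr2-/-.

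Few genes of the signal relay behind the receptors differed by 2-fold with TNF. Of 16 genes from Myd88 to Nfkbiz, 13, 13, 15 and 14 were measured in wildtype epithelium, Tnfr2-/- epithelium, wildtype mesenchyme and Tnfr2-/- mesenchyme. With TNF none was at least 2-fold higher in any of the 4, and the only ones 2-fold lower were Peli2, a ubiquitin ligase of the relay, in the wildtype mesenchyme (28.9 to 8.97 CPM) and Ecsit in the Tnfr2-/- mesenchyme. Of all genes 2.95%, 4.93%, 6.17% and 7.09% were higher and 1.05%, 8.6%, 7.81% and 8.04% lower, so these counts do not set the relay apart. Nfkbiz, a nuclear partner of NF-kB that IL-1 is known to raise, had 15.8, 23.7, 38.0 and 50.005 CPM in the epithelium. Processing and release genes, the caspases, inflammasome sensors and gasdermins that mature or free the ligands, were at least 2-fold lower in the mesenchyme than in the epithelium for 10 of 17, 11 of 17, 12 of 17 and 10 of 18 measured, and higher for 1, 0, 0 and 0. Of all genes 16.1%, 16.4%, 21.6% and 17.3% were lower and 25.4%, 21.5%, 23.1% and 21.7% higher. Among the 24 genes listed, those at least 2-fold higher with TNF included Casp4 in the wildtype epithelium (24.1 to 51.1 CPM) and Aim2 in the Tnfr2-/- mesenchyme, the last named after its values were seen. At least 2-fold lower were Pycard, the inflammasome adaptor, in the Tnfr2-/- epithelium and Casp1, which matures IL-1β and IL-18, in the wildtype mesenchyme (11.7 to 4.49 CPM). In the epithelium Pycard stood at 139, 111, 40.0 and 16.0 CPM, and Casp1 at 66.0, 70.6, 42.7 and 26.95 CPM, both lower in each Tnfr2-/- culture.

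The last list held 25 genes that fibroblasts are known to raise on IL-1 or TNF, and its change with TNF does not say which of the 2 cytokines acted. In the mesenchyme 13 of 23 measured were at least 2-fold higher and 1 lower with TNF in wildtype, and 9 of 22 higher and 4 lower in Tnfr2-/-. Over all genes the wildtype shares were 6.17% higher and 7.81% lower, and the Tnfr2-/- shares 7.09% higher and 8.04% lower. The median difference of the list was 2.33 and 0.51 on the log2 scale, beside -0.01 and -0.12 over all genes. Cxcl2, a neutrophil chemokine, had 40.2, 672, 256 and 1024 CPM, and Mmp13, a collagenase, 79.8, 1254, 471 and 1818 CPM. Both were already higher in untreated Tnfr2-/- than in untreated wildtype mesenchyme, as was the monocyte chemokine Ccl2 at 761, 9886, 1799 and 2555 CPM. The neutrophil chemokine Cxcl5 went the other way with TNF, at 471, 173, 1348 and 952 CPM. It was the 1 gene at least 2-fold lower in wildtype, but its difference of -0.50 in Tnfr2-/- was smaller than that. The 4 lower in Tnfr2-/- were Il6, Saa3, Tnfaip6 and Has2, named after their values were seen. In the epithelium 9 of 15 and 6 of 17 were higher with TNF and 0 lower, where 2.95% and 4.93% of all genes were higher and 1.05% and 8.6% lower, Ccl20 among them at 13.0, 119, 42.2 and 74.8 CPM.

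The genes most like each member were found by Pearson's r of log2(CPM + 1) over the 27 sums of a class in a library with at least 20 cells, among 10462 genes. The sums of a library share its depth and treatment, so r is a description with no test. Il1rn was most like Tns4 (r = 0.946), Mall (0.940) and Coro2a (0.932). Il1rl1 was most like Slc14a1 (0.945), Zwint (0.925) and Penk (0.917). Il1rap was most like Flnc (0.983), and Il1r1 most like Slc39a13 (0.979). Il18 was most like Muc16 (0.907), Il1r2 most like Fscn1 (0.907) and Il1a most like Ctla2a (0.889). Il33 had the lowest best match, Acsm3 (0.760), and Il1b had too few UMIs to be compared.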

How the data were processed

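Dissociated colonoids were depleted of dying cells with Annexin V and sequenced as 10x 3′ libraries, 1 per culture. Per the submitters' processing notes the reads were mapped to mm10 with Cell Ranger 5.0.0, and the release of the annotation is not named there. The values deposited are whole UMI counts of 30360 genes in 6155 cells, and the authors named 11 classes of cells. The paper reports leaving out cells under 100 UMIs and, in its own analysis, doublets of epithelial and mesenchymal cells. Whether such doublets had been removed before deposit was not tested. The lowest cell held 894 UMIs.

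For each class, and for the 7 epithelial and the 4 mesenchymal classes together, counts of the cells were added up and scaled to CPM, with exact Poisson 95% intervals. The 35 cells without a class were left out. With 1 library per group no test was run. Differences are of log2(CPM + 1), with bounds from the Poisson limits of both sums, and ratios have an exact conditional interval. A gene was counted as 2-fold apart among those at 5 CPM or more in 1 of both sums. Shares of cells were taken after thinning to 5000 UMIs, which left out 405 cells, with exact Clopper-Pearson intervals. Where a sum was 0, 3 counts were the limit. UMI totals of 44547639 to 87228093 per library set the precision, and intervals cover counting error only.

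The 9 members were named in full, with the 2 genes of each list that differed most up and the 2 that differed most down with TNF in wildtype, in each compartment, and the 3 genes most like each member of at least 200 UMIs. The members and lists were chosen with earlier results of these data known. Alternatives changed the pseudocount (0.1 and 10 CPM), the scale (TMM of edgeR 4.0.16 and size factors of DESeq2 1.42.0, in R 4.3.3), the minimum, the fold, the weighting of cells and classes, and the cells used, doublets called by scrublet in scanpy 1.11.5 included. The step was checked on simulated counts. Python 3.11.15 with numpy 2.4.6, scipy 1.17.1 and pandas 2.3.3 was used. GENCODE M21 gave a position for 30240 of the gene identifiers, and RefSeq the sequences. Some items of the lists are not reported here.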

Additional observations from a re-analysis of the deposited data

Results flagged for a closer look

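The difference of Il1rap with TNF in the mesenchyme had opposite signs in the genotypes. It was 0.80 in wildtype and -0.30 in Tnfr2-/- on the log2 scale, so the Tnfr2-/- difference minus the wildtype one was -1.10. With 1 culture per group this was not tested.

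The 35 cells that carry no class entered no comparison. In their sum Il1rn was at 122 CPM, Il1r1 at 46.9 CPM, Il1rap at 14.7 CPM, Il18 at 7.75 CPM, Il1r2 at 4.90 CPM, Il33 at 3.26 CPM and Il1rl1 at 1.63 CPM, each above the 1.22 CPM that a count of 0 allows there. Genes of both compartments were thus present among them.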

How the results depend on the processing

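No paired analysis was possible because each group had 1 library. Counting error is the only error known here, and the untreated Tnfr2-/- mesenchyme, with 90 cells, limits its comparisons most. Over 648 member differences recomputed under the alternatives, 538 moved by less than their counting interval, 107 moved by more and 3 reversed. Only a member past 2-fold in the main setting could count as reversed. The 3 were found with classes weighted equally, a setting that kept 5, 2, 4 and 3 epithelial and 1, 1, 2 and 1 mesenchymal classes with 20 cells or more on both sides. They were Il1a with TNF in Tnfr2-/- epithelium, which became -0.34, Il1r2 with TNF in Tnfr2-/- mesenchyme, which became 0.76, and Il1rl1 between genotypes in untreated mesenchyme, which became -2.60. The Il1r2 value rests on 1 untreated UMI. Members not past 2-fold also changed sign with equal weights, but were counted by the size of the move alone. Il1rap with TNF in wildtype mesenchyme was among them. There Mesenchyme-Ptges, the only class kept, had 152 CPM untreated and 112 CPM with TNF. The classes had different shares in the cultures, and equal weights set those shares aside.

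The counts of members 2-fold apart were small and moved as follows, in the order TNF in wildtype, TNF in Tnfr2-/-, genotype untreated and genotype with TNF. In the epithelium each main count was 2. A pseudocount of 10 CPM gave 0, 1, 0 and 0, equal class weights 1 in each, and a minimum of 20 CPM gave 0, 2, 1 and 1. Without Secretory-Reg4-Ang4, and with only cells of 5000 UMIs or more, the first and the last became 1. The mean over cells made the third 1, and a fold of 1.5 made the last 4. In the mesenchyme the main counts were 3, 5, 1 and 2. A pseudocount of 10 CPM made the second 3, the third 0 and the last 1, and a minimum of 20 CPM made the first 1, the second 2 and the last 1. Equal class weights made the second 3, and a fold of 1.5 made the first 6 and the third 5. The third became 2 with a pseudocount of 0.1 CPM, with TMM, with size factors and with cells of 5000 UMIs or more, and 4 with the mean over cells. At a minimum of 20 CPM the relatives had 0 genes 2-fold apart with TNF in each of the 4 comparisons, the fibroblast genes 4 in wildtype and 3 in Tnfr2-/- epithelium, and in the mesenchyme the processing genes 1 and 0 and the relay genes 0 in Tnfr2-/-.

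Il1a, Il1rl1 and, in Tnfr2-/-, Il1rn stayed at least 2-fold higher with TNF in the mesenchyme under all 9 settings that could change the difference, Il1rl1 between 1.86 and 7.26 in wildtype and between 4.06 and 5.66 in Tnfr2-/-. Il1rn in Tnfr2-/- epithelium stayed so under 8 of 9, and its difference was 0.06 with equal class weights. Il18 in wildtype mesenchyme stayed 2-fold lower under 6 of 9.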
